A study of Mus musculus with 12 samples.

Results

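The genes of the MHC class II antigen presentation route in the mouse liver were followed through sepsis and its treatment with dichloroacetate (DCA), a pyruvate analog that inhibits the pyruvate dehydrogenase kinases. The set held the 7 rows of the count table whose symbol is H2-Aa, H2-Ab1, H2-Eb1, H2-DMa, H2-DMb1, Cd74 or Ciita, of 25611 genes in all, and every one of the 7 passed the filter on low counts that left 13190 genes. RNA of whole livers of male C57BL/6J mice, 8 to 10 weeks old, was sequenced at 30 hr post-surgery in 12 libraries, 4 in each of 3 groups. Sham mice had the surgery without ligation or puncture of the cecum, and CLP mice had cecal ligation and puncture, which induces polymicrobial sepsis. CLP+DCA mice had CLP followed by DCA at 25 mg/kg, given at 24 hr post-surgery, which was 6 hr before harvest. The labels speak of an injection with the respective drugs at 24 hr, and what the sham and CLP mice received is not given in the sources used here. Between 24436513 and 44266819 reads were counted per library.

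MHC class II molecules are pairs of an alpha and a beta chain that show peptides from engulfed material to CD4 T cells. The invariant chain, product of Cd74, holds the new pairs and guides them to the compartment where H2-DM exchanges its remnant for a peptide, and CIITA is the coactivator on which transcription of all these genes depends. In the liver they are made mainly by dendritic cells, B cells and, to a lesser degree, Kupffer cells and sinusoidal endothelium, and loss of the human counterpart HLA-DR from blood monocytes is a known mark of immune paralysis in sepsis. Mice of the C57BL/6 background assemble the I-A molecule from H2-Aa and H2-Ab1, and lack I-E at the surface because the partner of H2-Eb1 is not made. H2-Ea-ps, the row of that partner, had 0 reads in all 12 libraries. A count of 0 allows up to 3 reads, or 0.0678 to 0.123 CPM (the count scaled to a common library size), here on library totals before normalization.

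Of the members, 5 lie in the MHC on chromosome 17 of the mm10 build, with H2-DMa at chr17:34122832-34139101, H2-DMb1 at chr17:34153191-34160229, H2-Ab1 at chr17:34263227-34269418 and H2-Eb1 at chr17:34305867-34316674 on the plus strand and H2-Aa at chr17:34282751-34287771 on the minus strand. Ciita lies at chr16:10480072-10527640 on the plus strand. Class II promoters share an X box, bound by the RFX complex, and a Y box, bound by NF-Y, on which CIITA docks. The RefSeq promoter table (GRCm38.p6, which is mm10, from 250 bases before to 50 after each gene start) held 5 entries for 4 of the 7 members, H2-Aa, H2-Eb1, H2-DMb1 and H2-DMa, and both boxes were found in 3 of them. Those 3 are printed in the direction of transcription, since they show the element that the chain genes and H2-DMb1 have in common, with the X box (letters CTNGNAAC) and then the Y box (TGATTGG) in capitals.
H2-Aa, chr17:34287774-34288073, minus strand: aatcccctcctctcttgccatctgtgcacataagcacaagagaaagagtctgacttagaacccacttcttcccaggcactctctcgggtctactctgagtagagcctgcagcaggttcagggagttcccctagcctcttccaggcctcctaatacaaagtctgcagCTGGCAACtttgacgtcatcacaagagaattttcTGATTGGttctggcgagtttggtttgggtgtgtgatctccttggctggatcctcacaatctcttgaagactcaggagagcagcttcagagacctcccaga
H2-Eb1, chr17:34305617-34305916, plus strand: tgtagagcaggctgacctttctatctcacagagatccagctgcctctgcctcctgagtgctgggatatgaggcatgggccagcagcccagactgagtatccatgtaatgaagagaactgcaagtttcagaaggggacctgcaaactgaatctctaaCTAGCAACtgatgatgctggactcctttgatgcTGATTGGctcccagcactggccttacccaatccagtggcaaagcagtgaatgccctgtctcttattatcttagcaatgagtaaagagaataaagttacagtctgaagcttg
H2-DMb1, chr17:34152941-34153240, plus strand: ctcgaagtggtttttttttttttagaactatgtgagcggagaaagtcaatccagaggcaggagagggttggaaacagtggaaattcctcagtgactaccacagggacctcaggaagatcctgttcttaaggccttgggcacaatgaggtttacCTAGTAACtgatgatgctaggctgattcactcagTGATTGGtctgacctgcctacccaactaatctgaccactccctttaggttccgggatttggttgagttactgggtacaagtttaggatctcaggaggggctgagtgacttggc

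In these windows the X box ended 26, 25 and 26 bases before the Y box in H2-Aa, H2-Eb1 and H2-DMb1, and the Y box lay 50, 61 and 63 bases upstream of the start. On either strand, TGATTGG was present in 7.82% and CTNGNAAC in 13.2% of all 32851 promoters. The order X box then Y box on 1 strand, 10 to 40 bases apart, was present in 28 promoters, or 0.0852%, and H2-Ob, a class II gene outside the 7 members, was another of them. The letters of the X box were chosen after these sequences had been read, so that the shares describe the windows and test nothing. Both H2-DMa windows held neither set of letters.

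The level of the classical chains was lower in all 4 CLP libraries than in all 4 sham libraries. H2-Aa, the alpha chain of I-A, was counted at 10.9, 9.26, 12.5 and 15.4 CPM in sham replicates 1 to 4, 4.40, 2.87, 5.42 and 1.62 CPM in CLP replicates 1 to 4 and 15.3, 10.9, 3.01 and 6.27 CPM in CLP+DCA replicates 1 to 4, with CPM computed on library sizes normalized by edgeR's TMM method. Every sham library lay above every CLP library, and CLP+DCA reached into both ranges, with replicate 1 at the top of sham and replicate 3 among the CLP libraries. Its median was 11.7 CPM in the sham livers, 3.64 CPM after CLP and 8.58 CPM after CLP and DCA, with SDs of 2.63, 1.67 and 5.38 CPM (n = 4 each). The fitted level was 3.30-fold lower in CLP than in sham, a log2 fold change of -1.72 ± 0.46 (SE) with an adjusted p of 0.0632 by edgeR's quasi-likelihood test with Benjamini-Hochberg adjustment over all genes.

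H2-Ab1, the beta chain of I-A, followed it closely, at 11.5, 8.67, 12.6 and 15.3 CPM in sham replicates 1 to 4, 5.23, 2.68, 5.37 and 2.83 CPM in CLP replicates 1 to 4 and 15.8, 11.4, 3.85 and 6.23 CPM in CLP+DCA replicates 1 to 4. Sham and CLP again did not overlap, and 3 of the 4 CLP+DCA libraries lay above all CLP libraries. With medians of 12.1, 4.03 and 8.81 CPM and SDs of 2.73, 1.47 and 5.35 CPM in the 3 groups, the log2 fold change of CLP against sham was -1.56 ± 0.40 (adjusted p = 0.0585, edgeR). H2-Eb1, the beta chain of I-E that is transcribed although its partner is not, was at 9.90, 6.96, 9.66 and 13.7 CPM in sham replicates 1 to 4, 3.66, 2.20, 4.79 and 2.38 CPM in CLP replicates 1 to 4 and 13.2, 9.91, 2.63 and 6.08 CPM in CLP+DCA replicates 1 to 4. The same libraries were high and low as for the I-A chains, and the log2 fold change was -1.61 ± 0.43 (adjusted p = 0.0636, edgeR). Genes of the H2 family are similar in sequence, and how the counting treated reads that match several of them is not given in the sources used here.

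Cd74, the gene of the invariant chain, lies on chromosome 18, where it overlaps Mir5107. It was the most abundant member, at 34.6, 27.6, 37.4 and 42.3 CPM in sham replicates 1 to 4, 15.6, 11.6, 20.7 and 8.71 CPM in CLP replicates 1 to 4 and 46.7, 32.3, 14.8 and 21.3 CPM in CLP+DCA replicates 1 to 4. CLP replicate 3, the highest of its group, was still below sham replicate 2, the lowest of sham, and CLP+DCA replicate 1 was the highest of the 12 libraries. The group means were 35.5 ± 6.16 CPM, 14.1 ± 5.19 CPM and 28.8 ± 14.0 CPM (SD, n = 4) in that order, and the log2 fold change of CLP against sham was -1.32 ± 0.34 (adjusted p = 0.0585, edgeR). The ratio of Cd74 to the sum of H2-Aa, H2-Ab1 and H2-Eb1, in CPM, ran from 0.952 to 1.11 in sham, from 1.17 to 1.49 in CLP and up to 1.56 in CLP+DCA. Sham and CLP did not overlap in this ratio, and the highest value of CLP+DCA belonged to replicate 3.

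**Figure D1:**
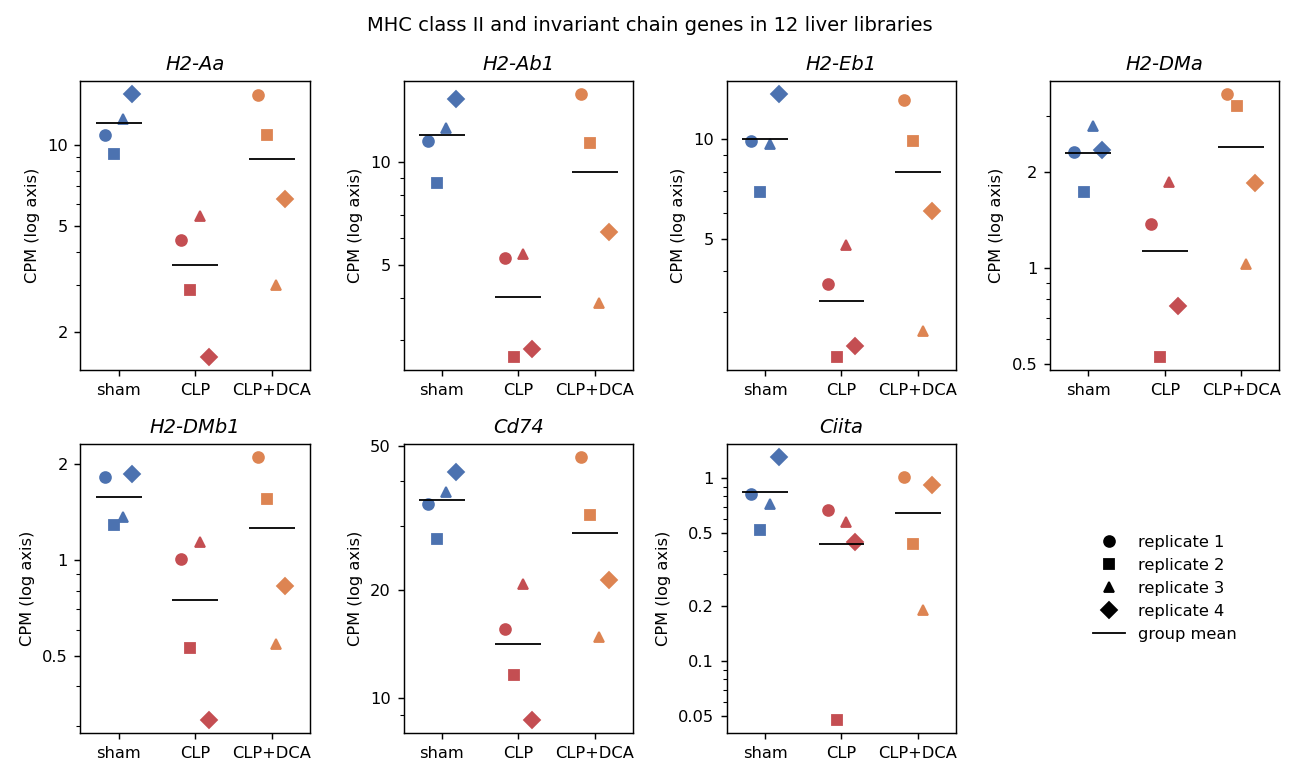
Level of each of the 7 genes (CPM, log axis) in the 12 libraries, by group, with a marker shape for each replicate number and a bar at the group mean (n = 4). H2-Aa, H2-Ab1, H2-Eb1, H2-DMb1 and Cd74 have all 4 CLP libraries below all 4 sham libraries, and CLP+DCA replicate 3 is the lowest of its group for all 7 genes.

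H2-DMa and H2-DMb1 encode the chains of H2-DM, the peptide exchanger. H2-DMa was at 2.31, 1.73, 2.79 and 2.35 CPM in sham replicates 1 to 4, 1.38, 0.527, 1.86 and 0.763 CPM in CLP replicates 1 to 4 and 3.51, 3.23, 1.03 and 1.85 CPM in CLP+DCA replicates 1 to 4. CLP replicate 3 lay above sham replicate 2, so that the groups overlapped, and 3 of the 4 CLP libraries were below all of sham. H2-DMb1 was at 1.82, 1.29, 1.36 and 1.86 CPM in sham replicates 1 to 4, 1.01, 0.527, 1.14 and 0.314 CPM in CLP replicates 1 to 4 and 2.11, 1.55, 0.542 and 0.827 CPM in CLP+DCA replicates 1 to 4, with no overlap between sham and CLP. The log2 fold changes of CLP against sham were -0.97 ± 0.42 for H2-DMa and -1.03 ± 0.45 for H2-DMb1, both with an adjusted p of 0.158 by edgeR. These values rest on few reads, 7 to 68 per library for H2-DMb1 and 11 to 110 for H2-DMa, and H2-DMb1 has a near-identical neighbour, H2-DMb2, so that reads may be split between them.

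Ciita was the least abundant member, at 0.818, 0.520, 0.728 and 1.31 CPM in sham replicates 1 to 4, 0.668, 0.0479, 0.580 and 0.449 CPM in CLP replicates 1 to 4 and 1.02, 0.437, 0.190 and 0.923 CPM in CLP+DCA replicates 1 to 4, or 1 to 48 reads per library. CLP replicate 2 held 1 read, and the groups overlapped, with 2 of 4 CLP libraries below all of sham. Its log2 fold change was -0.88 ± 0.59 (adjusted p = 0.327, edgeR), a difference not distinguished from the spread at this depth.

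In CLP against sham, 0 of the 7 members passed an FDR of 0.05 by edgeR, where 2.78% of all genes tested did and 1.14% passed with a lower level. All 7 fitted differences were negative, as were 48.1% over all genes. At an unadjusted p under 0.05, 6 of 7 were lower, against 13.1% of all genes, and the adjusted p of the members ran from 0.0585 to 0.327. The groups did not overlap, with CLP lower, for 5 of 7 members and for 14.2% of all genes. The median log2 fold change was -1.32 over the members and 0.02 over all genes. H2-Aa, H2-Ab1, H2-Eb1 and Cd74, 4 of 7, passed the FDR when edgeR was fitted to the 8 libraries compared (adjusted p = 0.0128 to 0.0158, with 8.99% of all genes passing as lower), in DESeq2 (0.00303 to 0.00418, with 6.57%), with voom sample quality weights (0.00836 to 0.0221, with 13.1%), without CLP replicate 3 (0.0363 to 0.0479, with 3.28%) and without CLP+DCA replicate 3 (11.6%). The latter library has no part in this contrast other than through the shared estimate of the spread. In whole liver, fewer cells of a type and less RNA per cell cannot be told apart.

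The level in DCA-treated septic livers was on average higher than in untreated ones, with a wide spread. The log2 fold changes of CLP+DCA against CLP were 1.28 ± 0.46 for H2-Aa, 1.19 ± 0.40 for H2-Ab1, 1.27 ± 0.43 for H2-Eb1 and 1.02 ± 0.34 for Cd74, with adjusted p of 0.408, 0.393, 0.398 and 0.393 by edgeR. H2-DMa differed by 1.04 ± 0.42 (adjusted p = 0.452), H2-DMb1 by 0.69 ± 0.45 (0.640) and Ciita by 0.47 ± 0.60 (0.824), all by edgeR. None of the 7 members passed the FDR, and 0.00758% of all genes, 1 gene, did. All 7 fitted differences were positive, as were 51.6% over all genes, and 5 of 7 had an unadjusted p under 0.05 with a higher level, against 5.06%. The median was 1.04 over the members and 0.01 over all genes. This comparison and CLP against sham share the 4 CLP libraries, so that a low value in those libraries enters both.

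No member separated the groups without overlap, as 2.32% of all genes did with CLP+DCA higher, and CLP+DCA replicate 3 lay within the CLP range for all 7. The other 3 CLP+DCA libraries lay above all 4 CLP libraries for H2-Aa, H2-Ab1, H2-Eb1 and Cd74, which without replicate 3 holds for 4 of 7 members and for 12.4% of all genes. Replicate 3 was the lowest of its group for all 7, so that leaving it out raises these differences in itself. Without it, the log2 fold changes were 1.56 for H2-Aa (adjusted p = 0.0446), 1.44 for H2-Ab1 (0.0407), 1.55 for H2-Eb1 (0.0316) and 1.23 for Cd74 (0.0490) by edgeR. In that fit 4 of 7 members passed as higher, as did 2.03% of all genes. With voom sample quality weights, which gave replicate 3 a weight of 0.125, 5 of 7 passed, with 4.93% of all genes, and in DESeq2 0 of 7 did, with 0.576%. The opposite choice left out CLP+DCA replicate 1, the highest of its group for all 7. It brought H2-Aa to 0.88 (adjusted p = 0.722), H2-Ab1 to 0.81 (0.692), H2-Eb1 to 0.91 (0.691) and Cd74 to 0.68 (0.686) by edgeR.

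The log2 fold changes of CLP+DCA against sham were -0.44 for H2-Aa, -0.37 for H2-Ab1, -0.34 for H2-Eb1, 0.06 for H2-DMa, -0.34 for H2-DMb1, -0.30 for Cd74 and -0.40 for Ciita, with adjusted p of 0.664 to 0.949 by edgeR. None of the 7 passed the FDR, where 0.0379% of all genes did, nor in DESeq2 (1.90% of all genes) or with voom sample quality weights (3.76%). None had an unadjusted p under 0.05, as 4.85% of all genes did with a lower and 8.14% with a higher level. The SE of these differences was between 0.34 and 0.57. Weighting the libraries by quality turned the sign of all 6 lower members, with the median of the 7 at 0.16 in place of -0.34.

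**Figure D2:**
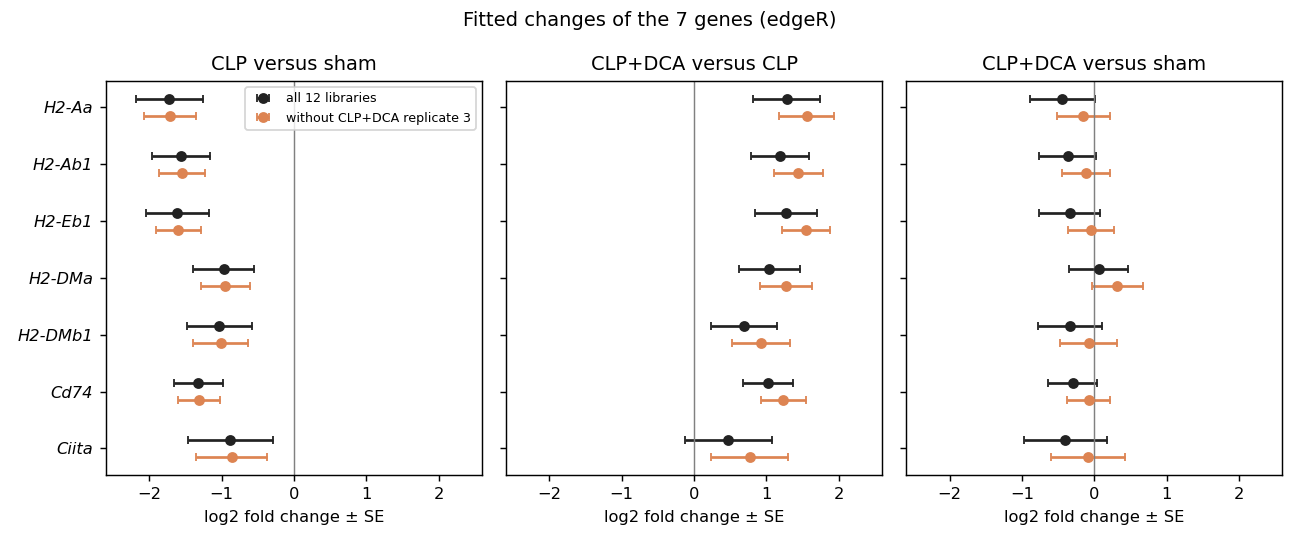
Fitted log2 fold change of each gene with its SE (bars) in the 3 comparisons, by edgeR on all 12 libraries (black) and without CLP+DCA replicate 3 (orange). CLP against sham is negative for all 7 genes, CLP+DCA against CLP is positive for all 7 and larger without replicate 3, and CLP+DCA against sham lies within 1 SE of 0 for all 7.

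The members moved together from library to library. Within CLP, replicates 2 and 4 had the lowest 2 values of all 7 genes. In CLP+DCA, replicate 1 was the highest and replicate 3 the lowest for all 7, and in sham replicate 2 was the lowest for all 7. Over the 12 libraries Pearson's r of log2 CPM was between 0.89 and 0.99 for the pairs of the 6 genes other than Ciita, and between 0.66 and 0.77 for Ciita with each of them. With the group means removed, the pairs of the 6 were between 0.87 and 0.98. These are descriptions over libraries that share the groups, with no test. The highest library stood 5.37-fold above the lowest for Cd74, 5.89-fold for H2-Ab1, 6.24-fold for H2-Eb1 and 9.55-fold for H2-Aa.

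**Figure D3:**
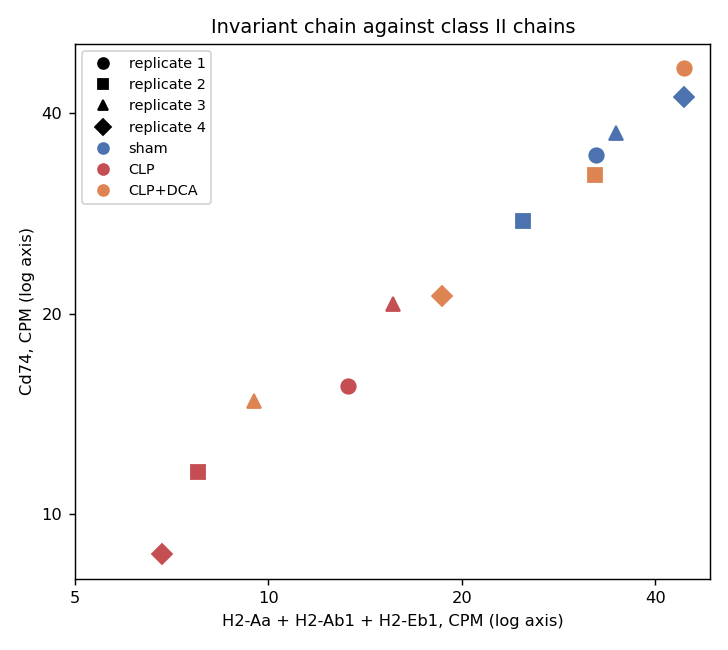
Cd74 (CPM, log axis) against the summed level of H2-Aa, H2-Ab1 and H2-Eb1 (CPM, log axis) in each of the 12 libraries, coloured by group with a marker shape for each replicate number. CLP+DCA replicates 1 and 2 lie with sham, at 44.3 and 32.2 CPM of the chains, and replicate 3 lies with CLP at 9.48 CPM.

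Per kilobase of merged exons in GENCODE M21, the order of levels was Cd74, H2-Eb1, H2-Ab1, H2-Aa, H2-DMb1, H2-DMa and Ciita. Mean CPM per kilobase in sham was 21.1 ± 3.67 for Cd74, 5.18 ± 1.43 for H2-Eb1, 4.68 ± 1.06 for H2-Ab1, 3.16 ± 0.694 for H2-Aa, 0.942 ± 0.179 for H2-DMb1, 0.665 ± 0.125 for H2-DMa and 0.0886 ± 0.0353 for Ciita (SD, n = 4). Cd74 was above H2-Eb1 in 12 of 12 libraries, by 4.36-fold at the median. H2-Eb1 was above H2-Ab1 in 10 of 12 and H2-DMb1 above H2-DMa in 9 of 12, so that the order of these neighbours varied, and each of the other steps held in 12 of 12. The merged exons take in every annotated transcript and are longer than a single messenger RNA, 9535 bases for Ciita and 1679 for Cd74.

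Class II genes outside the 7 members were near the limit of detection. H2-Ob, a chain of H2-DO, which restrains H2-DM in B cells, was the 1 of 5 that passed the filter, with 16, 11, 33 and 19 reads in sham replicates 1 to 4, 9, 0, 11 and 2 in CLP and 21, 10, 0 and 9 in CLP+DCA. Sham and CLP did not overlap in CPM, and the fitted log2 fold change was -1.89 ± 0.83 (adjusted p = 0.162, edgeR), in which CLP replicate 2 had 0 reads. H2-Oa, the other chain of H2-DO, H2-DMb2 and H2-Eb2 had at most 17 reads in a library. By the exact permutation test (two-sided, smallest possible p = 0.0286), CLP against sham gave p = 0.229 for H2-Oa, 0.200 for H2-DMb2 and 0.0571 for H2-Eb2, with adjusted values of 0.514 to 0.515 over the 9 genes below the filter.

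None of 14 genes of promoter and CIITA control passed the FDR in CLP against sham, where 2.78% of all genes tested did. Of the 14, 6 were higher and 8 lower, and the median log2 fold change was -0.13. The groups did not overlap for 4 genes with CLP higher and for 2 with CLP lower, against 1614 and 1878 of all 13190 genes tested. The RFX subunits, named for their role and outside the naming rule, differed by -0.18 ± 0.13 for Rfx5, -0.11 ± 0.10 for Rfxap and 0.64 ± 0.28 for Rfxank (adjusted p = 0.359, 0.457 and 0.165, edgeR). Nfyb, a subunit of NF-Y, was at 40.3 ± 3.71 CPM over the sham and 30.8 ± 5.27 CPM over the CLP libraries (SD, n = 4 each), a log2 difference of -0.39 ± 0.12 (adjusted p = 0.0847, edgeR). Socs3, an inhibitor of cytokine receptor signalling through JAK and STAT proteins, was at 59.6, 39.7, 45.9 and 45.2 CPM in sham, 130.6, 156.7, 134.7 and 142.0 CPM in CLP and 74.3, 45.8, 197.9 and 56.8 CPM in CLP+DCA. CLP lay above all of sham, by 1.57 ± 0.38 on the log2 scale (adjusted p = 0.0522, edgeR), and in CLP+DCA replicate 3 lay above the CLP range and the other 3 replicates below it.

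Socs1, the inhibitor of interferon gamma signalling in the same list, was singled out after its values were seen. It was at 0.298, 0.198, 0.475 and 0.328 CPM in sham replicates 1 to 4, 0.991, 11.2, 1.21 and 8.89 CPM in CLP replicates 1 to 4 and 0.447, 0.605, 15.1 and 0.159 CPM in CLP+DCA replicates 1 to 4. The 3 libraries with over 8 CPM, CLP replicates 2 and 4 and CLP+DCA replicate 3, were the 3 with the lowest summed H2-Aa, H2-Ab1 and H2-Eb1. They also had the lowest TMM factors, 0.855, 0.867 and 0.918, and the lowest summed hepatocyte markers, 30744.2, 39183.2 and 27576.3 CPM. Pearson's r with the mean log2 CPM of H2-Aa, H2-Ab1, H2-Eb1 and Cd74 was -0.82 for Socs1, -0.83 for Socs3 and -0.92 for Ifngr2. Whether Socs1 bears on the class II level was not tested. In the other 9 libraries Socs1 was between 0.159 and 1.21 CPM. The log2 fold change of CLP against sham was 4.08 ± 1.43 (adjusted p = 0.0994, edgeR).

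The proteases and regulators that prepare the peptides and turn over the loaded molecules were described next. Of 13 genes of class II peptide loading and turnover, 0 passed the FDR, where 2.78% of all genes tested did. In CLP 6 were higher and 7 lower than in sham, with a median of -0.01. Lgmn, the protease legumain of the endosome, was at 42.1, 39.1, 44.8 and 39.7 CPM in sham and 72.5, 113.0, 69.9 and 88.0 CPM in CLP, with every CLP library higher and a log2 fold change of 1.05 ± 0.32 (adjusted p = 0.0771, edgeR). Ifi30, a reductase that opens disulfide bonds of antigens, was at 13.2, 10.7, 14.4 and 9.52 CPM in sham and 17.2, 20.4, 16.5 and 17.8 CPM in CLP, also without overlap, with 0.58 ± 0.18 (adjusted p = 0.0756, edgeR). In CLP+DCA against CLP these 2 genes differed by 0.02 ± 0.32 and -0.04 ± 0.18.

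Of 7 costimulatory genes 3 passed the filter and 0 the FDR, which 2.78% of all genes tested passed in CLP against sham. Cd86, a ligand of CD28 on T cells, differed by 0.50 ± 0.24 between CLP and sham (adjusted p = 0.190, edgeR), and Icosl, the ligand of ICOS, by 0.56 ± 0.37 (0.322). Of 20 genes of interferon gamma and IL-10 signalling 18 passed the filter and 0 the FDR, with 7 higher, 11 lower and a median of -0.05. Cxcl10, a chemokine induced by interferon, was at 1.45, 2.01, 1.77 and 2.54 CPM in sham and 0.760, 0.383, 1.14 and 0.629 CPM in CLP, lower in all 4 CLP libraries by -1.38 ± 0.36 on the log2 scale (adjusted p = 0.0581, edgeR). Gbp7, an interferon-induced GTPase, was at 12.2, 12.8, 11.1 and 13.3 CPM in sham, 8.46, 3.21, 8.20 and 4.22 CPM in CLP and 12.4, 11.3, 7.26 and 10.3 CPM in CLP+DCA, with -1.02 ± 0.28 in CLP against sham (adjusted p = 0.0650, edgeR). Ifng itself had at most 2 reads and Il10 at most 7 reads in a library, too few to compare.

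MHC class I presentation, which serves CD8 T cells and is run by most cells, had a median of -0.14 over 14 genes, of which 0 passed, 6 were higher and 8 lower. CLP lay below sham without overlap for 5 of the 14, against 14.2% of all genes, and above it for 0. In CLP+DCA against CLP, 6 of the 14 had an unadjusted p under 0.05 by edgeR with a higher level, against 5.06% of all genes, and 0 with a lower. Tap1, a subunit of the peptide transporter, was at 23.7, 23.5, 24.0 and 21.6 CPM in sham, 19.6, 16.9, 18.9 and 18.5 CPM in CLP and 24.9, 24.0, 22.0 and 28.9 CPM in CLP+DCA. All 4 CLP libraries lay below all others, with -0.33 ± 0.09 against sham (adjusted p = 0.0650, edgeR) and 0.44 ± 0.09 for CLP+DCA against CLP (adjusted p = 0.158, edgeR). Psmb10, a subunit of the immunoproteasome, was at 38.3, 40.1, 38.1 and 38.4 CPM in sham, 24.9, 23.1, 29.5 and 18.6 CPM in CLP and 39.4, 48.9, 23.1 and 34.5 CPM in CLP+DCA, with -0.69 ± 0.20 against sham (adjusted p = 0.0695, edgeR). Whether the class II members differ from these lists in their change was not tested.

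**Figure D4:**
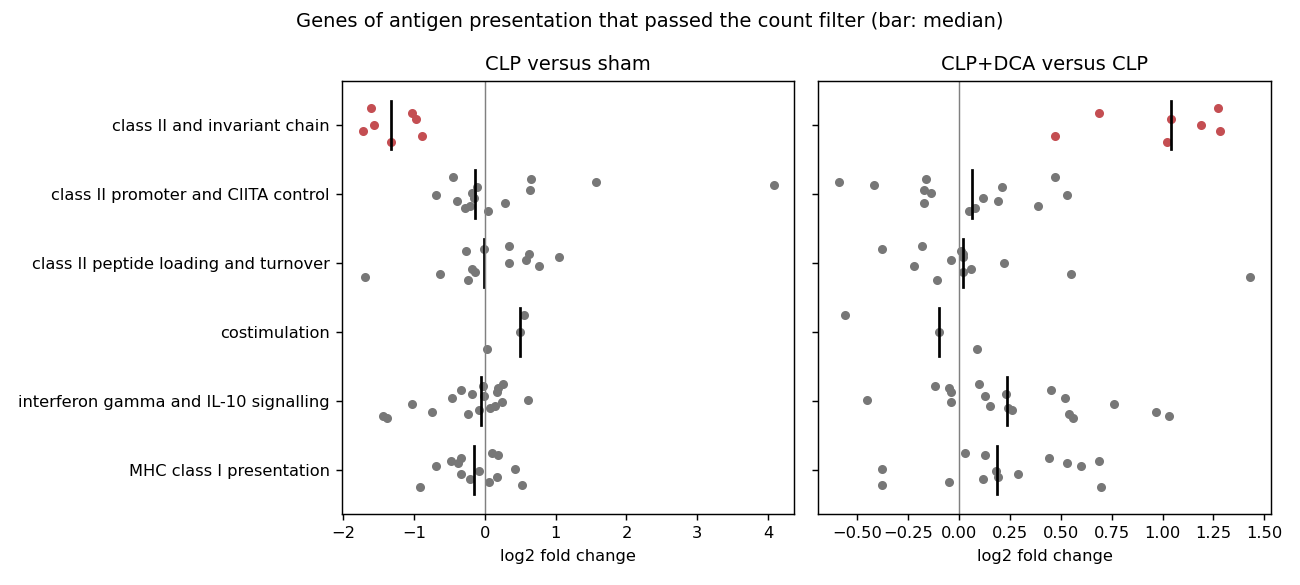
Fitted log2 fold change of the class II and invariant chain genes (red) and of 5 lists of related genes (grey) that passed the count filter, in CLP against sham (left) and CLP+DCA against CLP (right), a point for each gene and a bar at the median of each list. The class II genes have a median of -1.32 on the left and 1.04 on the right, where the medians of the other lists lie between -0.14 and 0.50 and between -0.10 and 0.23, and the point at 4.08 on the left is Socs1.

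The cells that carry these molecules were followed by marker genes in the same libraries. The summed level of H2-Aa, H2-Ab1 and H2-Eb1 was 32.3, 24.9, 34.8 and 44.4 CPM in sham replicates 1 to 4, 13.3, 7.76, 15.6 and 6.82 CPM in CLP and 44.3, 32.2, 9.48 and 18.6 CPM in CLP+DCA. B cell markers, led by Bank1, Cd22 and Cd79b, summed to 4.95, 4.21, 6.71 and 5.77 CPM in sham, 3.92, 1.05, 3.68 and 1.62 CPM in CLP and 4.41, 4.44, 1.68 and 3.34 CPM in CLP+DCA, so that CLP was lower than sham without overlap. The 3 lowest libraries were the same for the B cell markers and for the class II chains. All 5 B cell genes that passed the filter, of 11 in the table, were lower in CLP than in sham, 0 passed the FDR, and 7 of the 11, Cd79a, Cd79b and Ms4a1 among them, had 0 reads in at least 1 CLP library. The class II sum per B cell marker sum was 5.18 to 7.70 in sham, 3.39 to 7.36 in CLP and 5.56 to 10.1 in CLP+DCA, which overlapped.

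Dendritic cell markers summed to 95.6 to 125.2 CPM in sham, 42.6 to 82.5 CPM in CLP and 37.0 to 107.6 CPM in CLP+DCA, of which Dpp4, also expressed by hepatocytes, had 89.3 to 118.8 CPM in sham. Without Dpp4, an alternative chosen after seeing the data, the other 11 genes, led by Clec9a and Zbtb46, summed to 7.77, 6.39, 6.33 and 9.38 CPM in sham, 8.41, 7.95, 8.44 and 6.29 CPM in CLP and 9.80, 9.11, 7.61 and 7.35 CPM in CLP+DCA. The 3 groups overlapped in this sum, of which Clec9a and Zbtb46 held the larger share, with means of 2.43 and 1.86 CPM in sham and 3.31 and 2.22 CPM in CLP. The means of 8 of the 11 genes, Xcr1, Flt3, Siglech, Ccr7 and Cd209a among them, were lower in CLP than in sham and those of 3 higher, differences that did not pass the FDR by edgeR for any gene tested. The 9 genes other than Clec9a and Zbtb46, also set apart after seeing the data, summed to 3.65, 2.40, 2.91 and 3.75 CPM in sham, 2.63, 1.63, 3.48 and 1.26 CPM in CLP and 3.61, 3.66, 1.79 and 3.12 CPM in CLP+DCA, with overlap, and the 3 lowest libraries were those lowest in the class II chains. The class II sum per the 11 markers was 3.90 to 5.49 in sham, 0.976 to 1.85 in CLP and 1.25 to 4.52 in CLP+DCA, and per the 9 genes it was 8.85 to 11.9 in sham, 4.47 to 5.43 in CLP and 5.30 to 12.3 in CLP+DCA, in both cases without overlap between sham and CLP. Cd209a, Ccr7 and Itgae of this list had 0 reads in at least 1 CLP library.

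Kupffer cell markers, led by Slc40a1, Cd5l and Clec4f, summed to 425.9, 354.3, 480.0 and 388.5 CPM in sham, 556.9, 440.6, 449.1 and 474.2 CPM in CLP and 707.3, 693.9, 387.3 and 403.2 CPM in CLP+DCA, with overlap and none of the 13 genes at 0. Of the 13, 10 were higher and 3 lower in CLP than in sham. The means of Slc40a1 and Clec4f were 124.8 and 59.4 CPM in sham and 100 and 49.1 CPM in CLP. Those of Marco and Cd163 were 9.91 and 8.70 CPM in sham and 58.6 and 23.1 CPM in CLP, so that the sum mixed both directions. Per Kupffer marker sum, the class II sum was 0.0702 to 0.114 in sham, 0.0144 to 0.0347 in CLP and 0.0245 to 0.0627 in CLP+DCA, lower than sham in both septic groups without overlap. Sinusoidal endothelium markers, led by Stab1, Clec4g and Stab2, summed to 162.7 to 206.5 CPM in sham and 201.7 to 244.5 CPM in CLP. Per endothelial marker sum, the class II sum was 0.143 to 0.255 in sham, 0.0317 to 0.0648 in CLP and 0.0428 to 0.184 in CLP+DCA.

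Markers of other cell types also differed between the groups, and the genes named here as leading a list are those of highest mean over the 12 libraries. In CLP against sham, the marker genes past the FDR, named after their values were seen, were F13a1 of monocytes, with a log2 fold change of 3.05 (adjusted p = 0.0417), Retnlg of neutrophils with 3.10 (0.0254), Cd163 of Kupffer cells with 1.41 (0.0461), Stab1 of sinusoidal endothelium with 0.71 (0.0432), and Alb and Apoc3 of hepatocytes with -1.11 (0.0463) and -0.81 (0.0366), all by edgeR. Monocyte markers, led by Plac8, Ms4a6c and Chil3, summed to 6.07 to 9.04 CPM in sham and 13.6 to 20.1 CPM in CLP, where Chil3 had means of 0.318 CPM in sham and 3.41 CPM in CLP. Neutrophil markers, led by S100a9, S100a8 and Csf3r, summed to 8.97, 6.31, 6.24 and 7.66 CPM in sham, 31.8, 46.0, 37.1 and 34.8 CPM in CLP and 6.29, 14.0, 61.3 and 6.71 CPM in CLP+DCA. CLP+DCA replicate 3, the library low in class II, was the highest of the 12 in this sum. Of the 9 neutrophil genes that passed the filter, 8 were higher and 1, Ly6g, was lower in CLP than in sham. Ly6g had means of 0.823 CPM in sham, 0.459 CPM in CLP and 0.417 CPM in CLP+DCA. T and NK cell markers, led by Thy1, Lck and Cd4, summed to 2.28 to 4.08 CPM in sham, 1.35 to 2.54 CPM in CLP and 2.19 to 4.37 CPM in CLP+DCA. Hepatocyte markers, led by Alb, Apoa1 and Cyp2e1, summed to 64902.7 to 84876.4 CPM in sham and 30744.2 to 46990.2 CPM in CLP, and CLP+DCA replicate 3 was the lowest of the 12 at 27576.3 CPM. Alb made up much of this sum, with means of 46672.1 CPM in sham and 21570.8 CPM in CLP. Of the 10 genes, 9 were lower in CLP and 1, Hnf4a, was higher, with means of 713.6 and 739.6 CPM in sham and CLP. Stellate cell markers, led by Dcn, Des and Col3a1, summed to 79.8 to 121.7 CPM in sham, 104.9 to 399.0 CPM in CLP and 96.3 to 230.6 CPM in CLP+DCA. Des was at 172.0 CPM in CLP replicate 3 and at most 5.33 CPM in the other libraries, and without it the sum was 78.1 to 119.2 CPM in sham and 101.6 to 227.0 CPM in CLP. The part of these cell types in the class II values was not tested.

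**Figure D5:**
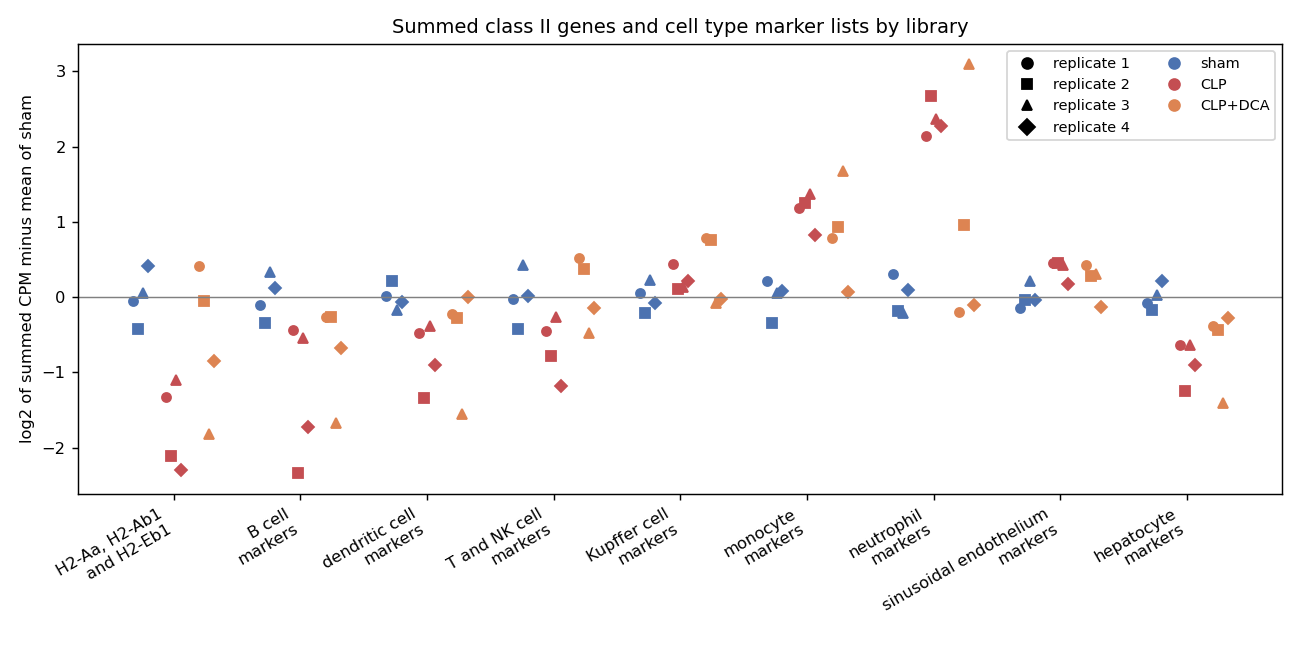
Summed CPM of the class II chains and of 8 cell type marker lists in each library, by group (colour) and replicate number (marker shape). The axis is log2 of the sum minus the mean of the log2 sums of the sham libraries. Class II chains and B cell markers are lowest in CLP replicates 2 and 4 and CLP+DCA replicate 3, and neutrophil markers are highest in CLP+DCA replicate 3 at 61.3 CPM.

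The genes whose pattern was most like that of the class II genes were sought among 11611 genes with a mean of at least 1 CPM, by Pearson's r with the mean log2 CPM of H2-Aa, H2-Ab1, H2-Eb1 and Cd74 over the 12 libraries. The 8 genes with the highest r were Atp1b1 (0.96), Gstm1, Nsun5 and Thrsp (0.95 each), and Arf5, Psma4, Clec7a and Tm2d3 (0.94 each), none of them a marker or pathway gene of the lists. Atp1b1 encodes a subunit of the sodium pump, Gstm1 a glutathione transferase, Thrsp a lipogenic protein of hepatocytes and Clec7a the beta-glucan receptor dectin-1 of myeloid cells. Gstm1 had means of 1039.1, 210.9 and 482.3 CPM over the sham, CLP and CLP+DCA libraries, and Clec7a of 3.22, 1.22 and 2.55 CPM in the same order. An r over 0.9 was reached by 78 genes, 0.672% of those searched. With the group means removed, r of these 8 genes was still 0.85 to 0.93, although 0 of them were among the 8 with the highest r. Those were Fhod1, Ppp1r16b, Tm6sf2, Arhgap19, U2af1, Gabbr1, Irf8 and Pld4, at 0.93 to 0.97. Fhod1, the first of them, had an r of 0.24 when the group means were kept. The points share 12 libraries and their groups, and these values are descriptions.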

How the data were processed

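Poly(A)-enriched libraries were sequenced at 100 bases paired-end, and the authors deposited unnormalized read counts per gene for 12 whole-liver samples, from alignment to mm10 with STAR (2.5) and counting with featureCounts of Subread (1.5.0-p1). The gene annotation, the strand setting and the treatment of reads matching several genes are not given in the sources used here. Samples were grouped by their labels, 4 per group, and the methods call them biological replicates. Between 24436513 and 44266819 counts per library were available, and the spread between libraries holds their counting error.

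Counts were analysed in R (4.3.3) with edgeR (4.0.16). Genes were filtered with filterByExpr (minimum count 10), which kept 13190 of 25611, with TMM scaling. Group means were fitted to all 12 libraries by the robust quasi-likelihood method, and the 3 contrasts were tested at a Benjamini-Hochberg FDR of 0.05 over all genes. The SE is the size of the log2 fold change divided by the root of F. CPM uses TMM library sizes, and log2 CPM a prior count of 2. Genes below the filter were compared by an exact permutation test, adjusted over 9 genes per comparison. The fits were tested on simulated counts. Alternatives were edgeR on the 8 libraries compared, DESeq2 (1.42.0), limma's voom with sample quality weights (3.58.1), RLE scaling, library size alone, no filter, another prior count (0.5), a replicate block and each library left out in turn.

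The members, the gene lists (other class II genes, promoter and CIITA control, peptide loading, costimulation, interferon gamma and IL-10 signalling, class I presentation and 9 cell type marker lists), the tests and the naming rule were chosen with earlier results of these data known. The rule named the 7 members, per pathway list the genes past the FDR or else the 2 with the smallest p in CLP against sham, per marker list up to 3 genes of highest mean CPM, and the 8 genes most correlated with the class II genes. Same-numbered samples did not deviate together (r of -0.46 to 0.55 over pairs of groups), so that numbers were taken to pair nothing. No 2 replicates of a group agreed within sampling noise (chi-square per degree of freedom of 24.8 or more).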

Additional observations from a re-analysis of the deposited data

Results flagged for a closer look

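Of 108 groups of 4 libraries examined with Dixon's test at the 95% level, 7 held a library that stood apart from the other 3 of its group, and chance alone marks about 1 in 20 groups. CLP+DCA replicate 3 stood apart in neutrophil markers, with a summed level of 61.3 CPM, and in stellate cell markers, with 230.6 CPM. It was also the lowest of its group for all 7 class II and invariant chain genes, although the test did not mark it for any of them. CLP replicate 4 stood apart in sinusoidal endothelium markers at 201.7 CPM, below the other 3 libraries of its group.

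In sham, replicate 4 stood apart for Nfyb at 45.8 CPM and for the class II sum per Kupffer cell marker sum at 0.114, replicate 2 for Psmb10 at 40.1 CPM, and replicate 3 for the ratio of H2-DMa to H2-DMb1 at 2.05.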

How the results depend on the processing

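The number of the 7 members past the FDR was 0 in all 3 comparisons in the main edgeR fit on the 12 libraries. In CLP against sham it was 4 with edgeR on the 8 libraries compared, in DESeq2 and with voom quality weights, and 0 to 4 with each library left out (4 without CLP replicate 3 and without CLP+DCA replicate 3). In CLP+DCA against CLP it was 5 with voom quality weights and 0 to 4 with each library left out. All 7 members kept their sign in these 2 comparisons under all 19 alternatives. Leaving out a library moved the members' median log2 fold change between -1.56 and -1.15, between 0.80 and 1.35, and, in CLP+DCA against sham, between -0.71 and -0.08. Library size alone moved the median of all genes to -0.15 and 0.12 in the first 2 comparisons, with the members at -1.45 and 1.13. Genes past the FDR in CLP against sham numbered 367, and 2387 with edgeR on the 8 libraries compared, 1918 in DESeq2, 3453 with voom, 209 by library size alone, 122 with no filter, and 10 (without sham replicate 3) to 3154 (without CLP+DCA replicate 3). Between CLP+DCA and CLP they numbered 1, and 0, 142 and 1341 by the first 3 of these, and 0 to 618 (without CLP+DCA replicate 3). Between CLP+DCA and sham they numbered 5, and 0, 251 and 496, 3 by library size alone, and 1 to 11. With the replicate number as a block they numbered 46, 4 and 0, and the members' medians were -1.37, 1.10 and -0.44, with 0 members called. Why these counts differ was not tested. Voom turned, in CLP+DCA against sham, the members' median to 0.16, H2-Aa to 0.12, H2-Ab1 to 0.17, H2-Eb1 to 0.22, H2-DMb1 to 0.13, Cd74 to 0.16, Ciita to 0.12 and Psmb10 to 0.05. Values near 0 of uncalled genes also changed sign. Between CLP+DCA and CLP these were Ifi30 (0.10 with voom, 0.08 by library size alone, -0.19 to 0.08 with a library left out), Lgmn (-0.33 with voom, -0.11 with the block, -0.49 to 0.23), Cd86 (0.02 by library size alone, -0.26 to 0.07), H2-DMb2 (-0.16 to 0.46), H2-Oa (-0.12 to 0.24) and H2-Eb2 (-0.12 to 0.34). Against sham they were Icosl (0.06 with the block, -0.24 to 0.38 with a library left out), H2-DMa (-0.18 to 0.32) and Psmb10 (-0.26 to 0.08). Low counts limit the precision of Ciita, H2-DMb1 and the class II genes outside the members, and the exact permutation test used for H2-Oa, H2-Eb2 and H2-DMb2 cannot give a p under 0.0286 before adjustment.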

Other observations

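March1 and Cd83, regulators of the class II surface molecule that were counted above in the list of peptide loading and turnover, were singled out after their values were seen. March1, the ubiquitin ligase that sends class II molecules for degradation, was at 1.82, 0.966, 1.61 and 1.86 CPM in sham replicates 1 to 4 and 2.51, 3.30, 2.06 and 1.84 CPM in CLP replicates 1 to 4. Sham and CLP overlapped, and the log2 fold change was 0.63 ± 0.25 (adjusted p = 0.134, edgeR). The means of March1 were 1.57 CPM in sham, 2.43 CPM in CLP and 2.46 CPM in CLP+DCA, so that the septic groups had similar levels. Cd83, which opposes March1, had 3, 13, 13 and 31 reads in sham, 6, 0, 11 and 1 in CLP and 12, 11, 9 and 14 in CLP+DCA. Its log2 fold change was -1.69 ± 0.67 in CLP against sham (adjusted p = 0.130, edgeR) and 1.43 ± 0.69 in CLP+DCA against CLP (0.509), and the groups overlapped in both.

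B2m, the light chain of class I molecules, was likewise looked up after its values were seen. It was at 1313.9, 1125.6, 1163.5 and 1119.1 CPM in sham, 669.6, 471.4, 796.9 and 576.8 CPM in CLP and 1189.1, 1207.1, 496.5 and 1180.8 CPM in CLP+DCA. All 4 CLP libraries were below all of sham, and CLP+DCA replicates 1, 2 and 4 lay in the sham range while replicate 3 lay in the CLP range. The log2 fold change was -0.91 ± 0.26 in CLP against sham (adjusted p = 0.0700, edgeR) and 0.70 ± 0.26 in CLP+DCA against CLP (0.422).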
